A study of Mus musculus with 10 samples.

Results

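The 10 genes described are members of the AP-1 family of transcription factors, taken by name from the FOS subfamily (Fos, Fosb, Fosl1, Fosl2), the JUN subfamily (Jun, Junb, Jund) and their basic leucine zipper relatives Atf3, Batf and Maff. They are 10 of 38922 genes in the tables of 10 mouse livers, and all 10 were among the 13719 genes with enough counts to be tested, Fosb, Fosl1 and Batf through the CD95-Ab mice, since their counts in saline mice alone were too few. AP-1 is a dimer of basic leucine zipper proteins: JUN proteins pair with each other or with FOS and ATF proteins, FOS proteins need a partner, and the dimer binds short palindromic DNA elements in promoters and enhancers. Several members are immediate early genes, whose transcripts are made within minutes of a stimulus and destroyed fast. In liver the family is known from the acute phase of injury and from regeneration, where JUN kinases and growth factor signals act on it.

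All mice were wild-type male C57BL/6N, an inbred laboratory strain, aged 6 weeks and weighing 22 to 25 g by the sample labels, with a lighter range in the study's methods. The 5 mice of the CD95-Ab group received 0.5 µg per g of body weight of an antibody that activates the death receptor CD95 (Fas), injected intraperitoneally, and the 5 controls received the same volume of saline. Livers were taken at 6 h, so each group is 1 time point, and every library came from a separate mouse. The comparison asked how liver transcripts differ in this model of acute liver failure.

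Expected counts of fragments per gene were scaled to an adjusted total of 1000000 per mouse (CPM). Totals ran from 25965699 to 62097636 counts per mouse, at which 3 counts correspond to 0.0556 to 0.121 CPM. All 10 hepatocyte markers looked for, among them albumin, were detected, with a summed level of 113400 to 140000 CPM after saline and 60030 to 100400 CPM after CD95-Ab. Of these markers 4 fell and 1 rose, where 22.0% and 25.4% of all tested genes did. A pair of libraries stood apart from the rest on the second principal component, which held 9.84% of the variance: in saline replicate 5 and CD95-Ab replicate 4 the 37 mitochondrial genes took 25.2% and 26.0% of the counts, against 6.62% to 20.2% in the other 8 mice. The main results were also computed without both. Genes that mark other cells also rose after CD95-Ab: 7 of 7 tested neutrophil genes, 6 of 10 macrophage genes, 8 of 9 lymphocyte genes (4 without both libraries or without saline replicate 5 alone), 6 of 7 endothelial genes and 6 of 6 erythroid genes. The neutrophil genes Ly6g, Camp and Elane and the lymphocyte gene Trac had too few counts to be tested. Some of the others entered the test through the CD95-Ab mice. With at least 10 counts required in every mouse, 4 neutrophil and 2 lymphocyte genes rose. In whole liver, fewer cells of a type and less RNA per cell cannot be told apart. The 10 transcripts without a poly(A) tail looked for summed to 0.338 to 0.924 CPM in saline mice and 357.6 to 1309 CPM in CD95-Ab mice. Nearly all of the CD95-Ab sum was Rn7sk, at 354.8 to 1301 CPM. All 4 that could be tested rose, and 6 had too few counts. Of the 4, Snora81, Rpph1 and Scarna2 had at most 4 counts in any saline mouse and entered the test through the CD95-Ab mice. Their part in this count is therefore not independent of the filter. With at least 10 counts required in every mouse, 1 rose. The libraries of both groups thus also differed in the kinds of RNA they held. The part of any of these shifts in the AP-1 values was not tested.

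The promoters of 4 members are shown because they hold letters that basic leucine zipper or MEF2 proteins are known to bind. Each run is the 250 bases before the transcription start in the RefSeq annotation of GRCm38.p6, read 5′ to 3′ on the strand of the gene. Capitals mark the matches, which were searched on both strands.
Fos, chr12:85473640-85473889, plus strand: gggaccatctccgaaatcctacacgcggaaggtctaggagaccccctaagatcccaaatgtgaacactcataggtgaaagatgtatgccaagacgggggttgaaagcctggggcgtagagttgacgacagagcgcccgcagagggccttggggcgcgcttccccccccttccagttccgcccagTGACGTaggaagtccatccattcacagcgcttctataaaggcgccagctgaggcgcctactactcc
Jun, chr4:95052223-95052472, minus strand: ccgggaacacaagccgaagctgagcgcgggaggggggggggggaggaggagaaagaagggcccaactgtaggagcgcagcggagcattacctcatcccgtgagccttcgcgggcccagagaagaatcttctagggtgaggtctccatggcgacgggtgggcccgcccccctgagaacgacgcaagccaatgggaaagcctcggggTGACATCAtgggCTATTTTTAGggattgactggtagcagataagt
Atf3, chr1:191183334-191183583, minus strand: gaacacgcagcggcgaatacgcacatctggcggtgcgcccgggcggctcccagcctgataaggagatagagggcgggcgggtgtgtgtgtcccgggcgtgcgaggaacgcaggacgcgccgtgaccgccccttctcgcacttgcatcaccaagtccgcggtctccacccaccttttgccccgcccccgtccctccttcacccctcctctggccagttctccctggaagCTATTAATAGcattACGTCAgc
Maff, chr15:79347270-79347519, plus strand, the second of 3 starts: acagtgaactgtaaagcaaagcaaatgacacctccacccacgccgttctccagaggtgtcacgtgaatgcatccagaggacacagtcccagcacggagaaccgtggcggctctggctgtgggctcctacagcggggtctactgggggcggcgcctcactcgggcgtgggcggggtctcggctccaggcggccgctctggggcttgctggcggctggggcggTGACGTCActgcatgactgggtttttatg

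In these windows Maff held a full cyclic AMP response element (CRE, TGACGTCA), whose letters end 22 bases before the start. Fos and Atf3 held the shorter core TGACGT, read on the minus strand as ACGTCA in Atf3, and every full CRE contains this core on both strands. Jun held the element TGACATCA and, a few bases on, a MEF2 box, and Atf3 held a MEF2 box of other letters. RefSeq windows were at hand for 9 members, 11 in all, each reaching 50 bases past the start. Fosl1 had no window, so its promoter was not searched. Batf held the core TGACGT, the third window of Maff held TGACATCA, and no searched motif was found in the windows of Fosb, Fosl2, Junb and Jund or in the first of Maff. The RefSeq window of Jund lies upstream of the start in the GENCODE model. The classic AP-1 element TGACTCA and the CArG box bound by SRF were in no window of the family. Sequence further upstream was not searched, so either element could still lie there, in Fos as in the other members. Among 32851 promoter windows of the same length, TGACGTCA was in 1.79%, TGACGT in 7.51%, TGACATCA in 3.62%, TGACTCA in 5.20%, the MEF2 box in 3.19% and the CArG box in 1.63%. These are matches of letters, and no binding was measured.

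After CD95-Ab, 9 of the 10 members rose at a false discovery rate (FDR) of 0.05 or less, none fell, and Fos missed the threshold. Among all 13719 tested genes 47.3% changed by the same rule, 25.4% higher and 22.0% lower. The median log2 fold change was 2.02 over the members and 0.01 over all tested genes. For Fosb, Fosl1, Fosl2, Atf3 and Maff the log2 fold change was also at least 2, which 6.59% of tested genes reached in that direction. In 6 members (Fosb, Fosl1, Fosl2, Atf3, Batf and Maff) every CD95-Ab mouse lay above every saline mouse, as did 18.6% of tested genes. No member showed the reverse, as 14.7% did. Fosb, Fosl1 and Batf entered the test through the CD95-Ab mice, so their part in these counts is not independent of the filter. With at least 10 counts required in every mouse they were not tested, and 6 members rose and 3 passed both thresholds. The summed level of the family was 130.6 to 580.0 CPM in saline mice and 776.0 to 1782 CPM in CD95-Ab mice. Without both libraries that stood apart 8 members rose, since Jun then had an FDR of 0.0573.

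**Figure D1:**
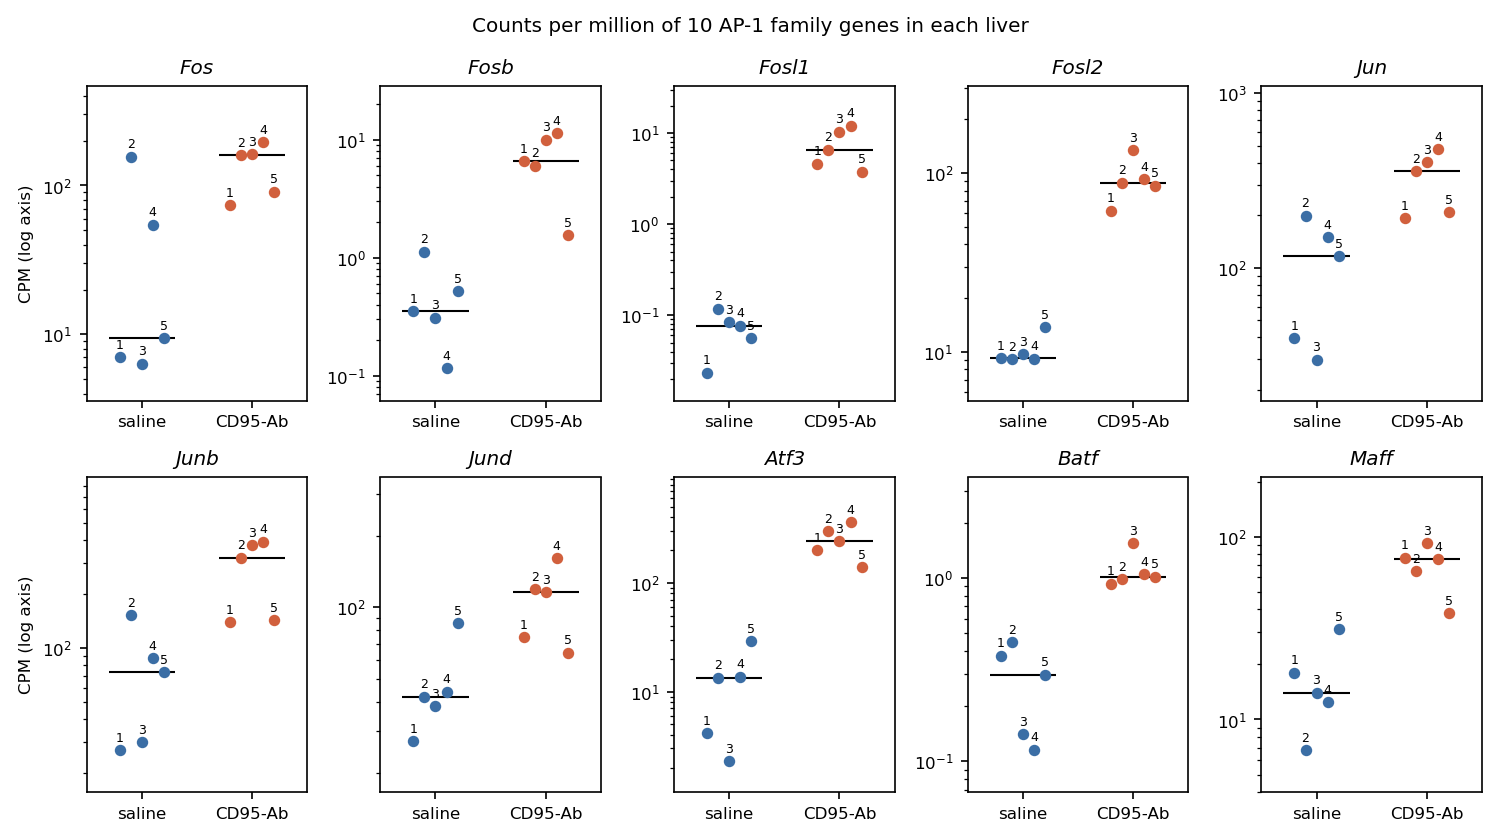
CPM of each member in each liver, with CPM on a log axis, saline mice in blue, CD95-Ab mice in orange, replicate numbers beside the points and black lines at the group medians. The groups of Fosb, Fosl1, Fosl2, Atf3, Batf and Maff do not overlap, and saline replicate 2 lies among the CD95-Ab mice for Fos at 156 CPM.

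Fos, the prototype immediate early gene and the partner of JUN in the classic dimer, had the widest spread of the family in the control livers. Its levels in saline replicates 1 to 5 were 7.03, 156, 6.37, 54.5 and 9.47 CPM, and in CD95-Ab replicates 1 to 5 they were 73.9, 160, 162, 196 and 90.9 CPM. Saline replicates 2 and 4 were high, and 3 of 5 CD95-Ab mice exceeded the highest control. The log2 fold change was 1.55 ± 0.81 (SE, n = 5 mice per group, edgeR FDR = 0.134). Without saline replicate 2 it was 2.82 with an FDR of 0.00545, and limma on log2 FPKM gave 2.51 with an FDR of 0.0203. Over 19 alternatives the FDR ran from 0.00545 to 0.316, the highest without both libraries that stood apart.

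Fosb, another immediate early gene of the subfamily, was near the limit of counting in control livers. Saline replicates 1 to 5 had 0.353, 1.13, 0.310, 0.115 and 0.519 CPM, from 3 to 38 counts. CD95-Ab replicates 1 to 5 had 6.55, 6.02, 9.99, 11.3 and 1.55 CPM. CD95-Ab replicate 5 was low, just above the highest control, and the groups did not overlap. Fosb rose by a log2 fold change of 3.83 ± 0.58 (SE, n = 5 per group, edgeR FDR = 0.000237).

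Fosl1, which encodes FRA-1, a FOS protein without the transactivation domain of FOS, showed the largest log2 fold change of the family. Its saline values were 0.0235, 0.119, 0.0845, 0.0770 and 0.0556 CPM, which rest on 1, 4, 3, 2 and 3 counts. CD95-Ab mice had 4.62, 6.56, 10.4, 12.0 and 3.76 CPM, so each treated liver had far more Fosl1 than any control. Fosl1 rose by a log2 fold change of 6.69 ± 0.47 (SE, n = 5 per group, edgeR FDR = 1.35e-06). Because the controls were so close to 0, its size depends on the value added to the counts, and it was 5.89 with a prior count of 2. Limma on log2 FPKM, which changes test, unit and added value together, gave 4.82. The summed counts were 13 in saline and 1079 in CD95-Ab livers, a ratio of 101 after scaling with an exact 95% interval of 58.8 to 190.0 that covers counting error only.

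Fosl2, which encodes FRA-2, was the most even member in control livers. It had 9.25, 9.13, 9.72, 9.16 and 13.8 CPM in saline replicates 1 to 5, and 61.8, 88.8, 135, 93.0 and 85.2 CPM in CD95-Ab replicates 1 to 5. Saline replicate 5 was high and CD95-Ab replicate 3 was high, but the groups were far apart. Fosl2 rose by a log2 fold change of 3.18 ± 0.21 (SE, n = 5 per group, edgeR FDR = 9.35e-07), and it was at most 3.31 over 19 alternatives.

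The JUN genes, each with a single exon (1.84% of tested protein-coding genes have 1), all rose, and their groups overlapped. Jun, the JUN kinase substrate that gives the subfamily its name, had 39.7, 199, 29.8, 150 and 116 CPM in saline replicates 1 to 5 and 192, 358, 403, 479 and 209 CPM in CD95-Ab replicates 1 to 5. CD95-Ab replicate 1 lay below saline replicate 2, and the other 4 treated mice lay above all controls. The log2 fold change of Jun was 1.62 ± 0.49 (SE, n = 5 per group, edgeR FDR = 0.0162). Junb, a weaker activator that can restrain Jun, had 26.7, 152, 29.7, 87.5 and 73.3 CPM after saline and 139, 320, 376, 392 and 142 CPM after CD95-Ab. CD95-Ab replicates 1 and 5 lay below saline replicate 2. The log2 fold change of Junb was 1.89 ± 0.49 (SE, n = 5 per group, edgeR FDR = 0.00752). Jund, the member most often expressed in resting cells, had 27.2, 42.0, 38.2, 44.2 and 85.8 CPM after saline and 75.0, 119, 116, 161 and 64.3 CPM after CD95-Ab. Saline replicate 5 was as high as the lower treated mice. The log2 fold change of Jund was 1.17 ± 0.32 (SE, n = 5 per group, edgeR FDR = 0.00958), the smallest among the members.

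Atf3, a stress-induced factor that binds DNA with JUN proteins or as a homodimer that represses, rose from 4.12, 13.4, 2.28, 13.7 and 28.9 CPM in saline replicates 1 to 5 to 201, 299, 242, 361 and 140 CPM in CD95-Ab replicates 1 to 5. The lowest treated liver was well above the highest control. Atf3 rose by a log2 fold change of 4.31 ± 0.61 (SE, n = 5 per group, edgeR FDR = 0.000151). Maff, a small MAF protein without a transactivation domain, had 18.0, 6.82, 14.0, 12.4 and 31.1 CPM after saline and 76.8, 64.8, 92.5, 75.1 and 38.0 CPM after CD95-Ab. CD95-Ab replicate 5 was the lowest treated mouse, close to saline replicate 5. The log2 fold change of Maff was 2.07 ± 0.36 (SE, n = 5 per group, edgeR FDR = 0.000601), and it fell below 2 in some alternatives, the lowest being 1.87.

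Batf, a partner of JUN known chiefly from lymphocytes and myeloid cells, was scarce in every liver. Saline replicates 1 to 5 had 0.376, 0.445, 0.141, 0.115 and 0.297 CPM, and CD95-Ab replicates 1 to 5 had 0.931, 0.987, 1.55, 1.05 and 1.02 CPM. The groups did not overlap, but the values rest on 3 to 16 counts in the controls and 26 to 46 counts after CD95-Ab. Batf rose by a log2 fold change of 1.96 ± 0.35 (SE, n = 5 per group, edgeR FDR = 0.000721). In the same mice the summed lymphocyte markers were 5.58 to 18.6 CPM after saline and 45.7 to 75.7 CPM after CD95-Ab, and the summed neutrophil markers were 4.27 to 10.9 and 109.8 to 456.9 CPM. Most of the lymphocyte sum was Ptprc, which marks all leukocytes, at 4.17 to 13.3 CPM after saline and 37.5 to 66.1 CPM after CD95-Ab. The part of these cells in the rise of Batf was not tested.

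**Figure D2:**
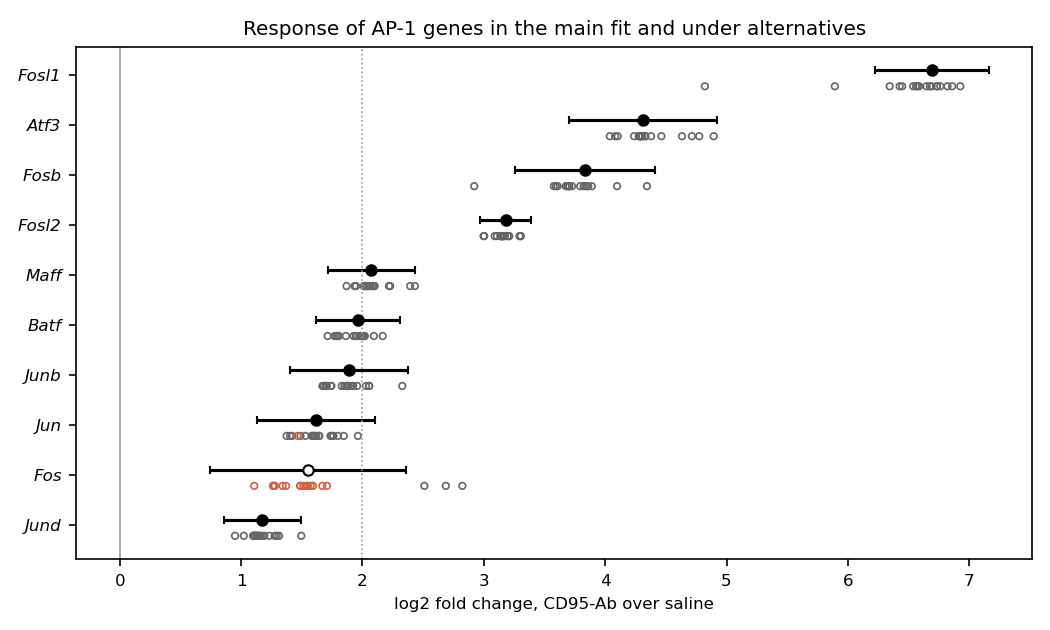
Log2 fold change of each member, CD95-Ab over saline, with its SE in the main test (black) and one circle for each alternative below it, orange where the FDR was above 0.05. The dotted line marks 2; Fos (open point) moves between 1.11 and 2.82, and Fosl1 between 4.82 and 6.93.

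Whether members of a subfamily responded alike was tested on the log2 ratio of their CPM within each mouse, for 6 FOS pairs and 3 JUN pairs, with a two-sided exact permutation test whose smallest p is 0.00794. With 0.1 CPM added, the rise of Fosl1 exceeded that of Fos by 2.72 (95% interval 1.18 to 4.88, exact p = 0.00794, Benjamini-Hochberg adjusted p = 0.0357) and that of Fosl2 by 2.21 (1.49 to 2.79, exact p = 0.00794, adjusted p = 0.0357). It exceeded that of Fosb by 1.76 (0.518 to 2.88, exact p = 0.0159, adjusted p = 0.0477). These 3 differences did not hold with 1 CPM added, where they were 0.34, -0.16 and 0.58 and the added value lies above every saline level of Fosl1. Without both libraries that stood apart they were 2.92, 1.87 and 1.68, but no pair of 9 passed, the smallest exact p with 4 mice against 4 being 0.0286. No pair passed either when 1 mouse was left out, unless it was saline replicate 4 or CD95-Ab replicate 1. The smallest exact p with 4 mice against 5 is 0.0159. Between Fos and Fosb (interval of the difference -3.50 to 1.26), Fos and Fosl2 (-3.13 to 1.45) and Fosb and Fosl2 (-1.07 to 1.69) no difference passed the test, and the intervals are wide.

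No JUN pair passed. The ratio of Jun to Junb changed by -0.16 on the log2 scale (95% interval -0.504 to 0.216), the narrowest interval of the 9 pairs. The ratio of Jun to Jund changed by 0.68 (-0.523 to 1.70) and that of Junb to Jund by 0.84 (-0.319 to 1.74), with exact p = 0.167 and 0.111 and adjusted p = 0.301 and 0.250.

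The FPKM that the authors deposited, which are scaled for transcript length, allow levels of different members to be set side by side. In saline livers the order by median was Junb (35.7 FPKM), Jun (32.4), Jund (15.7), Maff (7.78), Atf3 (7.12), Fos (4.14), Fosl2 (1.79), Batf (0.290), Fosb (0.110) and Fosl1 (0.050). Among neighbours in that order Fos and Fosl2, and Fosl2 and Batf, had ranges that did not overlap, and all other neighbours overlapped. The place of Atf3 above Fos holds for the medians alone, since Fos was higher in 4 of 5 saline mice. After CD95-Ab the order was Junb (179 FPKM), Atf3 (118), Jun (115), Fos (73.2), Jund (36.6), Maff (34.5), Fosl2 (14.8), Fosl1 (3.97), Fosb (2.01) and Batf (1.14), and of the neighbours in this order Fosl2 and Fosl1 alone did not overlap. Atf3 stood below Maff in the first order and next to Junb in the second. Junb was first in both groups by median.

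**Figure D3:**
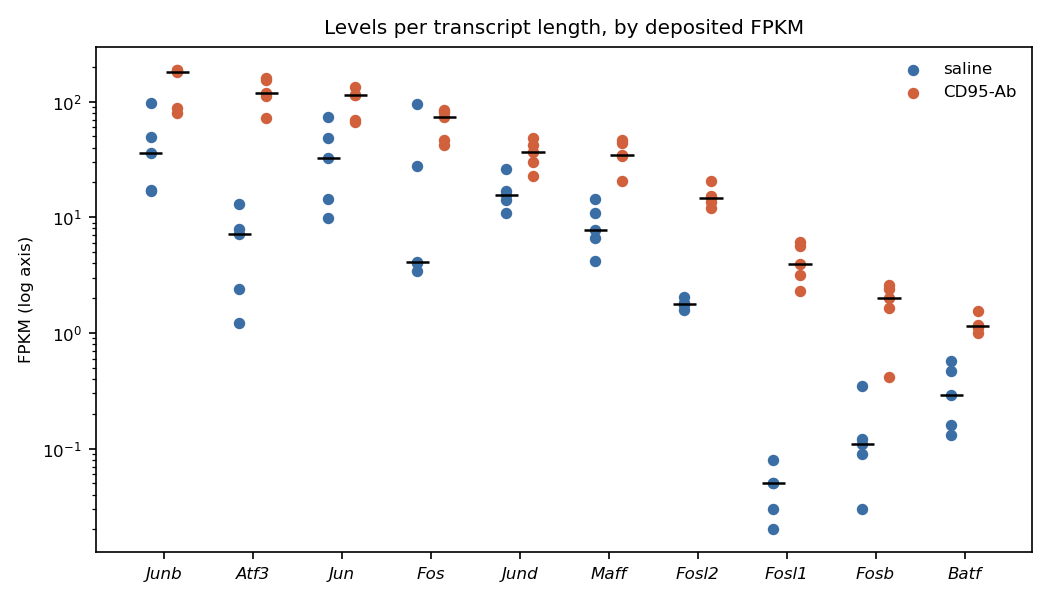
Deposited FPKM of the members on a log axis, ordered by their median after CD95-Ab, with saline mice in blue, CD95-Ab mice in orange and black lines at the medians of 5 mice. Junb leads in both groups, and Atf3 rises from a median of 7.12 to 118 FPKM.

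Within the FOS subfamily, Fos made up 64.8% to 97.7% of the summed FPKM in saline mice and 70.8% to 79.5% after CD95-Ab. The share of Fosl1 was 0.082% to 0.936% after saline and 3.59% to 5.73% after CD95-Ab, and these ranges did not overlap. Fosl2 ranged from 1.84% to 32.6% in controls, lowest where Fos was highest, and from 12.6% to 23.1% in treated mice. In the JUN subfamily the share of Junb was 37.8% to 52.0% and then 46.9% to 55.4%, that of Jun 24.0% to 42.6% and then 33.9% to 39.4%, and that of Jund 9.06% to 34.1% and then 10.8% to 16.0%. The shares of Fos, Fosl2, Jun, Junb and Jund spanned a wider range in saline mice than in CD95-Ab mice.

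In some livers most members lay on the same side of their group mean. In CD95-Ab replicate 3 all 10 members lay above their group mean of log2 CPM, in replicate 4 there were 9, and in replicate 5 none. Among controls, saline replicate 3 had 1 member above its group mean and saline replicate 1 had 2, against 8 in replicate 5. Saline replicate 5 and CD95-Ab replicate 4 are the libraries that stood apart. The share of all tested genes above their group mean in each mouse was not computed. A shift of the family and a shift of the whole library therefore cannot be told apart from these counts. Saline replicate 2 was 2.92 above the mean for Fos, 1.25 for Jun and 1.34 for Junb on this scale. It was below the mean for Maff (-1.09), Fosl2 (-0.14) and Jund (-0.0689). Other transcripts varied among the treated mice too: the erythroid markers summed to 1064, 7056, 34010, 20670 and 5357 CPM in CD95-Ab replicates 1 to 5, and those without a poly(A) tail to 357.6, 703.4, 811.0, 1309 and 563.6 CPM. Fos, Jun, Junb and the latter sum, nearly all of it Rn7sk, had the same order over the 5 treated mice. Their relation was not tested.

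**Figure D4:**
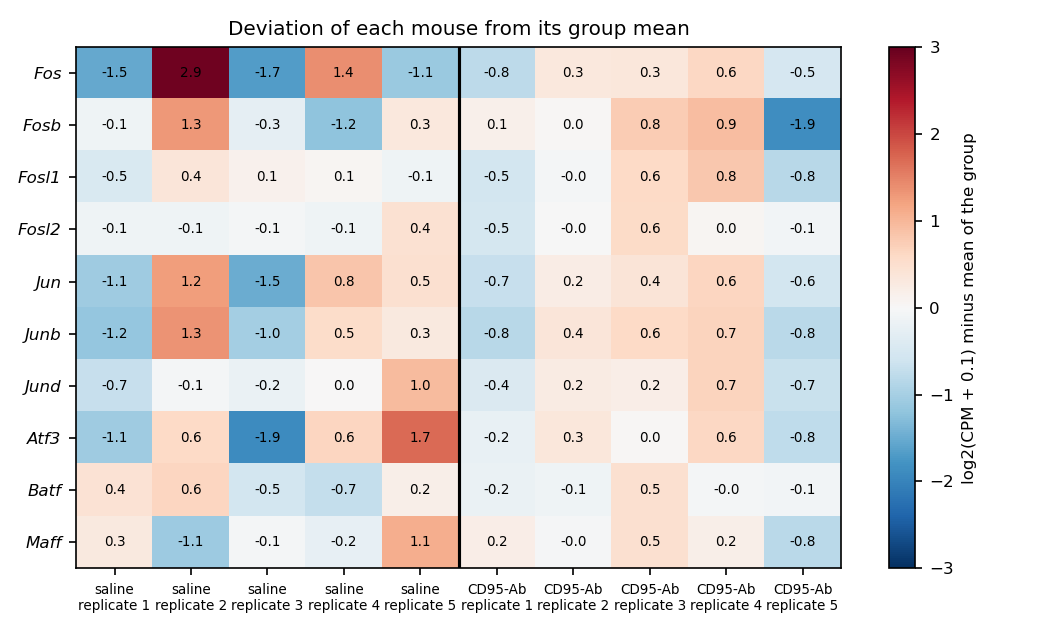
Deviation of each mouse from its group mean of log2(CPM + 0.1) for each member, red above and blue below, with the values printed and saline mice left of the black line. CD95-Ab replicate 3 is at or above the mean for all 10 members and CD95-Ab replicate 5 below it for all 10, and saline replicate 2 stands out for Fos at 2.92.

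After the group means were subtracted, Fos followed Junb (Spearman rho 0.915, Pearson r 0.861) and Jun (0.879 and 0.854) over the 10 mice, and Jun followed Junb (0.903 and 0.964). The 5 genes outside the family closest to Fos among 12129 were Arrdc3 (Spearman rho 0.939), Zfp36 (0.915), Plk2 (0.903), Egr1 (0.903) and Saal1 (0.879). Egr1 is another immediate early gene, and Zfp36 encodes tristetraprolin, a protein that destroys transcripts with AU-rich elements. Likeness within groups and change between groups were separate quantities here, since Arrdc3 fell by 2.14 and Zfp36 rose by 1.73 on the log2 scale. For Fosl1 the closest were Ogfrl1 (0.988), Snx15 (0.952), Frat2, Gfer and Mrpl28 (0.939 each), but its saline values rest on 1 to 4 counts. All these are the highest of many values over the same 10 libraries, and are given as a description.

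Short AU-rich pentamers (AUUUA) in the 3′ untranslated region are a known mark of unstable transcripts. By the GENCODE models on GRCm38, Fos held 4.89 per kb, more than 93.2% of 11924 tested genes, Junb 4.10, Maff 3.27, Jun 3.24 and Batf none, with a median of 1.33 over those genes. Atf3 held 2.52, Jund 1.87, Fosl2 1.72, Fosl1 1.56 and Fosb 0.466 per kb. On the same models Fos (chr12:85473890-85477273) has 4 exons and Atf3 (chr1:191170296-191218039) has 4, while Jun (chr4:95049034-95052222), Junb (chr8:84974484-84978718) and Jund (chr8:70698949-70700616) have 1.

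Some members overlap other genes, and strand was not stated to be used in counting. The antisense gene Junos at Jun had at most 0.686 CPM. Gm11175, antisense inside Jund, had 0 CPM in saline replicate 5 and CD95-Ab replicate 4 and up to 6.71 CPM elsewhere, below Jund in every mouse. Ccdc85b, whose end overlaps Fosl1, had 0.712 to 1.98 CPM in saline mice, above Fosl1 there, and up to 2.58 CPM after CD95-Ab, below it. Prdx2, whose end overlaps Junb, had 67.8 to 92.4 CPM after saline and 51.6 to 73.0 CPM after CD95-Ab. Reads of such pairs cannot be told apart where they overlap.

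Genes linked to the family were read from 5 lists. Of 11 tested other basic leucine zipper genes 4 rose and 1 fell, where 25.4% and 22.0% of all tested genes did, at a median log2 fold change of 0.36, while Nrl had no counts. Jdp2, which pairs with JUN and represses AP-1 sites, rose from 0.860 to 1.71 CPM in saline mice to 5.71 to 15.3 CPM in CD95-Ab mice (log2 fold change 2.84 ± 0.31, edgeR FDR = 2.08e-05). Batf2 rose by 2.34 ± 0.30, Mafk by 1.54 ± 0.17 and Mafg by 0.59 ± 0.12.

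Of 16 tested kinases upstream of AP-1, in the JUN kinase, ERK and p38 pathways, 4 rose and 3 fell, a share close to the 47.3% of all tested genes that changed, and the median log2 fold change was 0.12. Without both libraries that stood apart 4 rose and 5 fell. Map3k8, which encodes TPL2, a kinase that activates MEK in inflammatory signaling, rose by 2.58 ± 0.29 (edgeR FDR = 2.57e-05), from 1.31 to 2.97 CPM to 7.80 to 16.2 CPM. Map2k6, a p38 kinase kinase, fell by 2.81 ± 0.39 (edgeR FDR = 0.000124), from 2.37 to 6.03 CPM to 0.385 to 1.47 CPM. Map3k1 rose by 0.93 ± 0.17, and Mapk11 had a log2 fold change of 0.98 ± 0.35 at an FDR of 0.0357, which went above 0.05 when any of 6 mice was left out (saline replicate 1, 2 or 4, or CD95-Ab replicate 2, 3 or 4), with an FDR of up to 0.101. Map2k2, the most abundant of the other kinases, had 66.8 to 85.4 CPM after saline and 50.6 to 80.7 CPM after CD95-Ab (edgeR FDR = 0.303).

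SRF, its ternary complex partners and the MEF2 proteins are known to switch on Fos and Jun. Of these 7 genes 4 rose and none fell, against 25.4% and 22.0% of all tested genes, with a median log2 fold change of 0.56. Srf rose by 1.64 ± 0.17 (edgeR FDR = 1.74e-05), from 9.01 to 10.6 CPM to 20.1 to 38.5 CPM, and Mef2c by 1.63 ± 0.28 (edgeR FDR = 0.000572). Mef2a rose by 0.56 ± 0.11 and Elk3 by 0.77 ± 0.24, the latter with an FDR of 0.0567 without CD95-Ab replicate 5. Elk4 had a log2 fold change of -0.03 ± 0.11, which turned to 0.024 without saline replicate 5.

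Genes known from other tissues as AP-1 targets, among them proteases, cytokines and growth factors, rose almost throughout. Of 21 tested genes 19 rose and none fell, against 25.4% and 22.0% of all tested genes, at a median log2 fold change of 3.80, while Mmp3, Mmp10 and Il11 had too few counts to be tested. This list was assembled with results of these data known and is not independent evidence of its direction. Some of its genes, Lif and Ptgs2 among them, entered the test through the CD95-Ab mice. Their part in the count is not independent of the filter. With at least 10 counts required in every mouse, 9 rose. Ccl2, which attracts monocytes, had 0.241 to 1.10 CPM after saline and 85.1 to 220.3 CPM after CD95-Ab (log2 fold change 7.97 ± 0.48, edgeR FDR = 5.21e-07). Mmp13, a collagenase, went from 0.0556 to 0.563 CPM to 28.4 to 85.6 CPM (7.44 ± 0.54, edgeR FDR = 1.49e-06). Lif, a cytokine of the interleukin 6 family, had at most 0.0564 CPM in any control and 7.03 to 20.7 CPM in treated livers, and Ptgs2, the inducible cyclooxygenase, at most 0.0941 CPM and then 2.05 to 9.28 CPM. Both sit below 3 counts in most controls, so no fold is given. Ccnd1 (log2 fold change 0.17 ± 0.37) and Vegfa (0.48 ± 0.24) did not pass the test.

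Among genes that act on the stability or turnover of AP-1 transcripts or proteins, 10 were tested. Of these 3 rose and 2 fell, close to the 25.4% and 22.0% of all tested genes, and the median log2 fold change was -0.11. The number that fell was 1 without both libraries that stood apart, and 1 with any mouse but CD95-Ab replicate 1 left out. Zfp36, already named for its likeness to Fos, rose by 1.73 ± 0.37 (edgeR FDR = 0.00254), from 101.1 to 342.8 CPM to 413.7 to 1038 CPM, and its relative Zfp36l1 by 1.60 ± 0.23 (edgeR FDR = 0.000155). Fbxw7, a ubiquitin ligase subunit for JUN, rose by 0.67 ± 0.12, and Itch, another JUN ligase, fell by 0.67 ± 0.17 on the log2 scale (edgeR FDR = 0.00543). Cnot1, the scaffold of the deadenylase complex, had a log2 fold change of -0.14 ± 0.23 (edgeR FDR = 0.625).

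**Figure D5:**
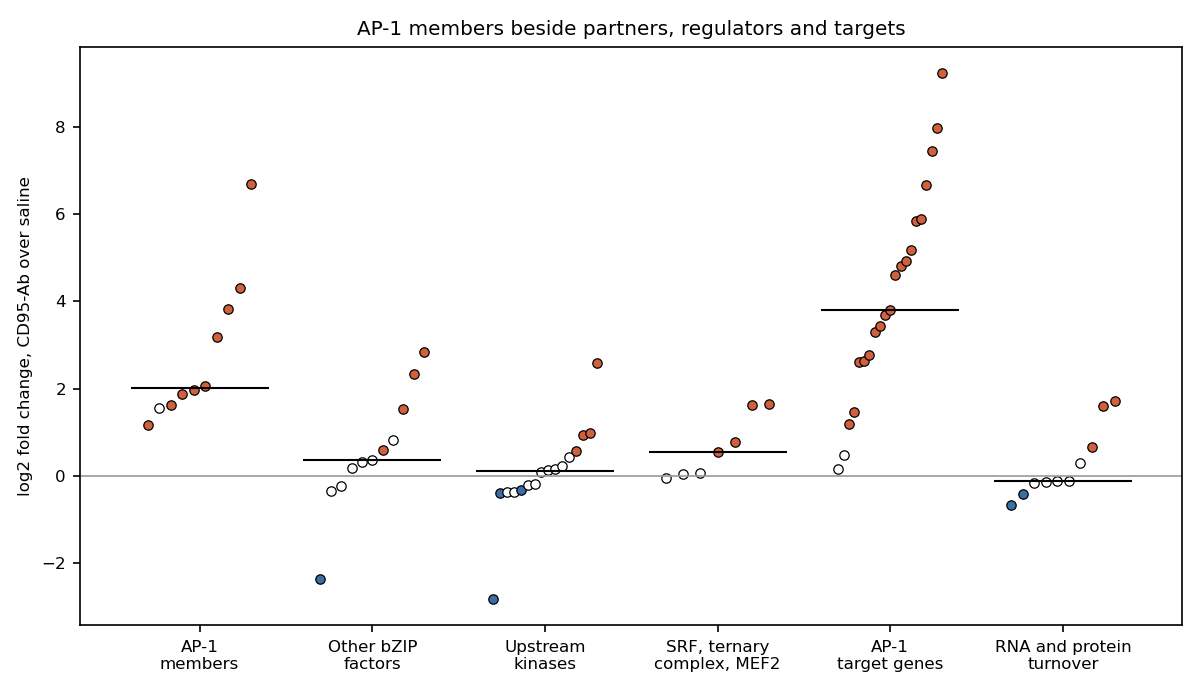
Log2 fold change of each tested gene, CD95-Ab over saline, for the 10 AP-1 members and 5 linked lists, with filled circles where the FDR was 0.05 or less (orange higher, blue lower), open circles otherwise and black lines at the medians. The medians are 2.02 for the members and 3.80 for the target genes, and between -0.11 and 0.56 for the other 4 lists.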

How the data were processed

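RNA of 10 livers (500 ng each, TruSeq, paired reads of 100 bp) was sequenced by the authors, who assigned reads to genes with RSEM 1.2.19 and deposited expected counts and FPKM. The deposited expected counts are whole numbers without normalization. The FPKM that the authors deposited are scaled for transcript length and total, and served for levels between members. The study's methods name a human Gencode release, although the gene identifiers are those of mouse. The mouse annotation and build behind the counts are not given in the sources used here. RSEM shares out reads that fit several genes, so overlapping genes depend on that step. Symbols and models came from GENCODE M21 (37606 of 38922 identifiers matched), promoters from RefSeq on GRCm38.p6.

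Low genes were removed by filterByExpr (minimum count 10), libraries were scaled by TMM, and the groups given by the sample labels were tested in edgeR 4.0.16 (quasi-likelihood, R 4.3.3), with Benjamini-Hochberg FDR over all 13719 tested genes. The SE comes from the F statistic of that test. Pairs of members were compared with exact permutation tests (scipy 1.17.1) on log2(CPM + 0.1). Lists were described by counts, without a set test. The code was tested on simulated data. DESeq2 1.42.0, limma 3.58.1 on log2(FPKM + 0.1), other scalings and filters, a prior count of 2, a block for the replicate number and leaving out each mouse were alternatives, and leaving out both libraries with high mitochondrial counts was added after seeing the data.

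The members and lists were chosen with earlier results of these data known. All members are named. From each linked list the 4 genes with the largest changes past the FDR and at least 1 CPM in the higher group are named, with the most abundant of the rest, except for 2 genes that are not reported here; Ccnd1, Vegfa and the genes not tested were added after their values were seen. For likeness, genes had a mean of at least 1 CPM.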

Additional observations from a re-analysis of the deposited data

Results flagged for a closer look

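A mouse was singled out where its gap to the nearest of the other 4 in its group, divided by the range of the group, reached Dixon's critical value of 0.71. Chance gives such a gap in about 1 of 20 groups, or 3.5 of the 70 groups examined, and 6 were found, 3 of them among the members. Fosl2 in saline replicate 5 (13.8 CPM against 9.13 to 9.72, ratio 0.873) and Jund in the same mouse (85.8 CPM against 27.2 to 44.2, ratio 0.71) belong to a library with high mitochondrial counts, whose part in these values was not tested. Without that library and CD95-Ab replicate 4 the log2 fold changes were 3.30 for Fosl2 and 1.29 for Jund. Batf in CD95-Ab replicate 3 was 1.55 CPM against 0.931 to 1.05 (ratio 0.809). Map2k6 in the same mouse was 1.47 CPM against 0.385 to 0.576 (ratio 0.825). Ptgs2 in CD95-Ab replicate 4 was 9.28 CPM against 2.05 to 4.07 (ratio 0.721). Zfp36l1 in CD95-Ab replicate 1 was low, at 204.7 CPM against 350.4 to 387.4 (ratio 0.797).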

How the results depend on the processing

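Every member kept the direction of its change under each alternative run. The count of members that rose was 9 or 10 with any 1 mouse left out, 9 with DESeq2, 10 with limma on FPKM, 8 without both high-mitochondrial libraries and 6 where at least 10 counts were required in every mouse, a filter that left Fosb, Fosl1 and Batf untested. That filter also lowered the members past both thresholds from 5 to 3, the AP-1 targets that rose to 9, the neutrophil markers to 4, the lymphocyte markers to 2 and the transcripts without a poly(A) tail from 4 to 1. With any 1 mouse left out, members past both thresholds numbered 4 to 7 and lymphocyte markers that rose 4 to 9. Turnover genes that fell then numbered 1, or 2 without CD95-Ab replicate 1. Scaling by totals without TMM left 5 lymphocyte markers that rose. Turnover genes that fell numbered 1 with total scaling, without a filter and without both high-mitochondrial libraries, where 5 kinases fell and 4 lymphocyte markers rose. The cause of these shifts was not tested, other than the smaller number of genes tested under the stricter filter.

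The labels do not say whether a replicate number stands for a pair or a batch. The correlations of same-numbered mice in their deviations from the group means were 0.257, 0.0875, 0.13, -0.0166 and -0.274 for replicates 1 to 5. Their mean was 0.0367, against -0.00622 between different numbers, and 4 of the 10 mice correlated best with their own number. Whether the numbers mark a pairing was not tested further. With the replicate number as a block, 10 members rose, 8 passed both thresholds (Fos with a log2 fold change of 2.69 and FDR of 0.00951), 5 lymphocyte markers rose, 1 turnover gene fell and 5987 genes passed the FDR in place of 6495.

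For the pairs within subfamilies the value added to the CPM mattered. The number that passed was 3, and was 0 with 1 CPM added. It was also 0 with any 1 mouse left out other than saline replicate 4 or CD95-Ab replicate 1, and at most 3 without either of those. With 1 mouse left out the smallest possible exact p rises to 0.0159. Without both high-mitochondrial libraries it was 0, but the smallest exact p is then 0.0286, so that 3 pairs could not pass after adjustment, and the differences of Fos and Fosb against Fosl1 were -2.92 and -1.68 and of Fosl1 against Fosl2 1.87. With 1 CPM added the difference turned to 0.24 between Fos and Fosb, -0.74 between Fosb and Fosl2 and -0.16 between Fosl1 and Fosl2, and with FPKM it was -0.081 between Fosb and Fosl2. With any 1 mouse left out Fos against Fosl2 ran from -0.92 to 0.25 and Elk4 from -0.10 to 0.024, and Elk4 was 0.0039 without both high-mitochondrial libraries. The level order by CPM per coding length was not run. Depth limits Fosl1, Fosb and Batf in saline livers, where 3 counts are 0.0556 to 0.115 CPM.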
